A study of Mus musculus with 104 samples.

Results

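Naaladl2 is a very long gene on mouse chromosome 3 whose product resembles a family of membrane-bound peptidases. The junctions described here are those mapped between 23.5 and 25.5 Mb of chromosome 3 in the mm9 build, a window of 2 Mb named after the gene, with each read name used once in a table. They numbered 948 of the 531098 junctions that lay more than 5 Mb from the bait break of their own experiment. The window was chosen with measured values in view: it had already shown more junctions in neural progenitor cells treated with aphidicolin than in the other conditions. Its levels by condition are therefore given as a description, without a test.

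HTGTS-Seq (high-throughput genome-wide translocation sequencing) starts from a break cut at a known bait site and reads the distant DNA ends, called prey, to which that break became joined. Mouse embryonic stem cells (ESC) of line 1 and line 2 were studied together with neural progenitor cells (NPC) induced from them in culture. All carried the genotype Xrcc4-/- p53-/- on a C57BL/6/129SVE background, so controls lacked the same end-joining factor and the same checkpoint gene as treated cells. Cells received APH (aphidicolin) or DMSO, the solvent, and each combination of cell type, line and treatment was assayed with a bait on chromosome 7, 12 or 15. This gave 104 experiments in 24 tables, called pools here, and 6 pools for each cell type and treatment. Some experiments were listed again inside another of the same pool: all 10907 read names of experiment B of NPC line 2 bait 12 APH also stood under A, and in ESC line 1 bait 7 APH all 3718 of A and all 3983 of D also stood under C. Each name was kept once, under the letter listed first. The labels do not say that experiments of a pool were separate cultures, so spreads between them may be technical. Expression was not measured in these files, and the cell types rest on the labels.

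Aphidicolin inhibits the replicative DNA polymerases and slows replication forks. In neural progenitor cells, slowed replication is known to leave breaks clustered in certain very long, transcribed genes that replicate late, many of which serve cell adhesion and synapses. Such recurrent break clusters are seen by translocation sequencing as a raised density of prey junctions over a large part of a gene. Loss of Xrcc4, a partner of DNA ligase IV, removes classical end joining, and the ends that remain are joined by alternative routes that often use a few matching bases. In the RefSeq annotation of GRCm38.p6, used for gene order only, the protein-coding genes on either side of Naaladl2 are Tbl1xr1 and Nlgn1. Nlgn1 encodes the synaptic adhesion protein neuroligin 1. Exons and introns of the window were not assigned here, as no mm9 annotation was used.

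The junction reads show what was counted. A read runs from the bait (first 30 bases shown, lower case) into the prey (last 30 bases, lower case). The first set holds, for each bait, the lowest-lying NPC APH junction of the window with an overlap of 4 or more bases. The overlap, in capitals, is the stretch covered by both the bait and the prey alignment. An alignment can include a mismatch. The junction positions are 23609067 on the plus strand for bait 7, 23575075 on the minus strand for bait 12 and 23710022 on the minus strand for bait 15, all on chromosome 3 of mm9 in line 1.
Bait 7, overlap of 7 bases: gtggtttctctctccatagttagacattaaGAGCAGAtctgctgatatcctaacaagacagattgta
Bait 12, overlap of 5 bases: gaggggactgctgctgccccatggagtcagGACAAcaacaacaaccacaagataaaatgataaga
Bait 15, overlap of 4 bases: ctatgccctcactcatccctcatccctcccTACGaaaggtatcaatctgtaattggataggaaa
The 3 reads join different bait breaks to different positions in the window.

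Some tables held the same junctions, and this bears on every NPC value that uses bait 15. Position 24353495 on the plus strand, the lowest-lying of 7 positions tied as next most frequent in the window, was read 4 times in 2 pools, NPC line 1 bait 15 APH and NPC line 2 bait 15 DMSO. The reads are shown because they carry the same 8 inserted bases (capitals, aligned to neither side) and the same letters throughout, under different lines and different treatments.
Line 1 bait 15 APH, experiment A: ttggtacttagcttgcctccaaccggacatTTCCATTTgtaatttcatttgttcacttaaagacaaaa
Line 2 bait 15 DMSO, experiment A: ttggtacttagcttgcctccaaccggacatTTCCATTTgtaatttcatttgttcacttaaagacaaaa
The most frequent position, 24298138 on the minus strand, was read 5 times in 3 pools and crossed cell types. It was present with bait 15 in the APH tables of both NPC lines and in the DMSO table of ESC line 2, and 2 of the reads are shown with their 4 overlapping bases in capitals. The read from NPC line 2 has the same letters over its 61 bases, but its alignment ends give an overlap of 1 base. The 4 bases in capitals are thus an overlap of alignments and need not all match the bait.
NPC line 1 bait 15 APH, experiment B: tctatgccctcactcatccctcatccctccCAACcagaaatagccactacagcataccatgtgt
ESC line 2 bait 15 DMSO, experiment A: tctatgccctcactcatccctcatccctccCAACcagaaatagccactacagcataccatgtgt

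The sharing was measured over all chromosomes without a bait, as junctions with the same chromosome, position and strand, in percent of the smaller set. Experiments of different baits shared a median of 0.0% and at most 9.48% over 3386 pairs. Between NPC line 1 and NPC line 2 at bait 15, 8 pairs of experiments shared 65.0% to 84.7%, and the other 56 pairs shared at most 8.04%. In 4 of these pairs the treatments matched: APH B with APH B (81.1%), APH D with APH D (84.7%), DMSO B with DMSO B (68.7%) and DMSO C with DMSO C (78.8%). In the other 4 they did not. Line 1 APH experiments A and C matched line 2 DMSO experiments A and D (77.2% and 73.4%). Line 1 DMSO experiments A and D matched the rows of the line 2 APH table that carry no experiment letter (65.0% and 68.3%). The line 2 APH experiment A, which held only 199 such junctions, was the one line 2 set without a match. Experiment letters of the line 2 APH pool did not match its labels, so here they are only the letters written in its rows.

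**Figure D1:**
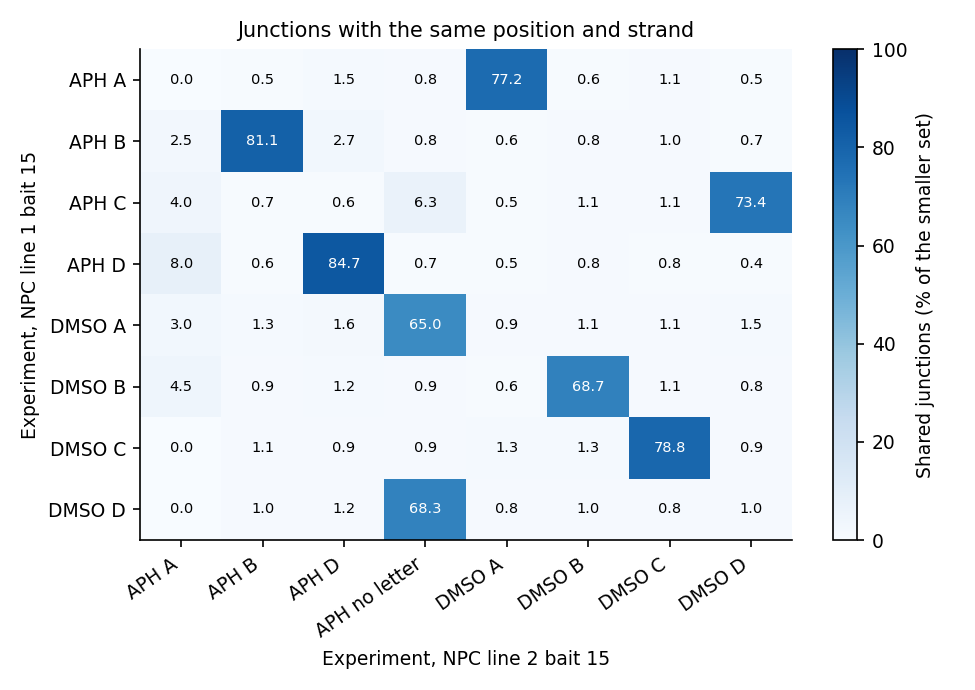
Percent of junctions with the same chromosome, position and strand between the 8 experiments of NPC line 1 bait 15 (rows) and the experiments of NPC line 2 bait 15 (columns), off the bait chromosomes and relative to the smaller set. The 8 dark cells run from 65.0% to 84.7%, and 4 of them join an APH label to a DMSO label. Letters of the line 2 APH pool are as written in its rows and did not match its labels.

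In the window, 222 of the 264 junctions of NPC line 2 bait 15 (84.1%) were at a position and strand also held by NPC line 1 bait 15. Of these, 214 also had the same end on the bait side and the same overlap. No read name was common to them, and the 2 lines had no sequencing run in common (0 runs). The NPC bait 15 pools of line 1 and line 2 were therefore not separate samples of the window, and which table's treatment label applies cannot be told apart from these files. Values are given below for the 5 NPC pools without line 2 bait 15, a choice that keeps the line 1 labels, with the 6-pool value or the value without either bait 15 pool where it matters. Smaller overlaps also linked NPC bait 12 APH experiment C of line 1 to experiment D of line 2 (43.8%), NPC line 1 bait 12 DMSO experiment B to ESC line 1 bait 12 DMSO experiment A (31.1%), and NPC bait 15 APH experiment D to ESC line 2 bait 15 DMSO experiment A (28.9% for line 1 and 29.6% for line 2). In ESC line 1 bait 7, experiment G of APH and experiment G of DMSO shared 21.4%. The row letters of that DMSO pool also did not match its labels. Within single pools, 11 pairs of experiments, all ESC, shared over 20% and up to 50.4%, so a small ESC count can hold the same junction more than once. In the window, 6 of the 18 ESC DMSO junctions and 1 of the 24 ESC APH junctions lay at a position and strand held by an NPC pool.

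The window was most often joined in NPC treated with APH. Depth differed between cell types: NPC APH pools held 16325 to 88587 junctions more than 5 Mb from the bait break, NPC DMSO pools 12526 to 58601, ESC APH pools 6114 to 10385 and ESC DMSO pools 4713 to 12945. In line 1, NPC APH had 62 window junctions with bait 7 (0.198% of junctions more than 5 Mb from the bait break), 138 with bait 12 (0.297%) and 247 with bait 15 (0.279%). In line 2 it had 63 with bait 7 (0.289%) and 58 with bait 12 (0.355%). These 5 pools averaged 0.283% ± 0.0565 (SD, n = 5). The line 2 bait 15 pool labelled APH had 146 (0.218%).

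Under DMSO the NPC shares of the 5 pools were lower than under APH, a contrast on which the window was chosen. NPC DMSO had 11 window junctions with bait 7 (0.0756%), 25 with bait 12 (0.105%) and 24 with bait 15 (0.0661%) in line 1. In line 2 it had 8 with bait 7 (0.0377%) and 6 with bait 12 (0.0479%). The mean was 0.0665% ± 0.0262 (SD, n = 5). The line 2 bait 15 pool labelled DMSO had 118 (0.201%), above the lowest APH pool. Its experiments were uneven: A and D, which match line 1 APH experiments, held 106 of 38354 junctions (0.276%), and B and C, which match line 1 DMSO experiments, held 12 of 20247 (0.0593%). Likewise, the rows without a letter in the line 2 APH table held 9 of 13078 (0.0688%), against 70 of 25564 (0.274%) in its experiment B and 67 of 27925 (0.240%) in D.

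The ratio of APH to DMSO in NPC was 2.61 for line 1 bait 7, 2.83 for line 1 bait 12, 4.22 for line 1 bait 15, 7.65 for line 2 bait 7 and 7.42 for line 2 bait 12. On the log2 scale the difference averaged 2.16 ± 0.74 (SD, n = 5). For line 2 bait 15 as labelled the ratio was 1.08, and with that pair the mean was 1.82 ± 1.06 (SD, n = 6). Without either bait 15 pair it was 2.18 over 4 pairs. APH was above DMSO in 5 of 5 pairs, as it was in 41.2% of the 500 kb bins with 200 or more junctions on chromosomes without a bait (77 of 187). Those junctions were summed over all pools, among which NPC APH was the deepest condition, so the filter favours bins high in NPC APH. The window was also chosen on this contrast, so nothing is read from the count. Sequencing runs were taken from the read names. The APH share was higher in 12 of the 12 runs of these pairs that met a minimum junction count in both treatments. Other runs were left out. This describes the chosen contrast again and adds no support.

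Single experiments spread more widely. Over the 19 NPC APH experiments outside line 2 bait 15, the share ran from 0.138% through a median of 0.268% to 0.506%. Over the 20 NPC DMSO experiments it ran from 0.0% through 0.0596% to 0.245%. Only 1 DMSO experiment lay above the lowest APH experiment, namely B of line 1 bait 12 with 13 of 5301 junctions. In the other direction, 5 of the 19 APH experiments lay below that DMSO experiment.

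In ESC the window held few junctions under either treatment. ESC APH pools had 4, 5 and 4 junctions in line 1 and 4, 2 and 5 in line 2 (baits 7, 12 and 15), which is 0.0219% to 0.0654% and a mean of 0.0492% ± 0.0170 (SD, n = 6). ESC DMSO pools had 0, 5 and 1 in line 1 and 1, 5 and 6 in line 2, with a mean of 0.0452% ± 0.0452 (SD, n = 6). The count of 0 in ESC line 1 bait 7 DMSO allows a share of up to 0.0637%, by 3 counts of 4713, counting error only. APH was above DMSO in 3 of the 6 ESC pairs, and the differences ran from -0.0458 to 0.0654 percentage points, so no APH effect was detectable in ESC at this depth. The summed 95% exact (Clopper-Pearson) intervals were 0.0304% to 0.0707% for ESC APH and 0.0253% to 0.0674% for ESC DMSO. They overlapped the interval of NPC DMSO, 0.0536% to 0.0857% over 5 pools, and lay below that of NPC APH, 0.255% to 0.301%. These intervals cover counting error only.

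Under APH, the NPC share was 3.02 to 16.3 times the ESC share of the same line and bait over the 5 pairs, a mean log2 difference of 2.69 ± 0.89 (SD, n = 5). NPC was above ESC in 5 of 5 pairs, as it was in 36.4% of the 500 kb bins that passed the same filter (68 of 187). This is again a contrast that chose the window. Outside NPC line 2 bait 15, NPC APH had the highest shares, and NPC DMSO, ESC APH and ESC DMSO followed each other with overlapping pools. The separation of NPC APH was not counted over other bins, so nothing is read from it.

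**Figure D2:**
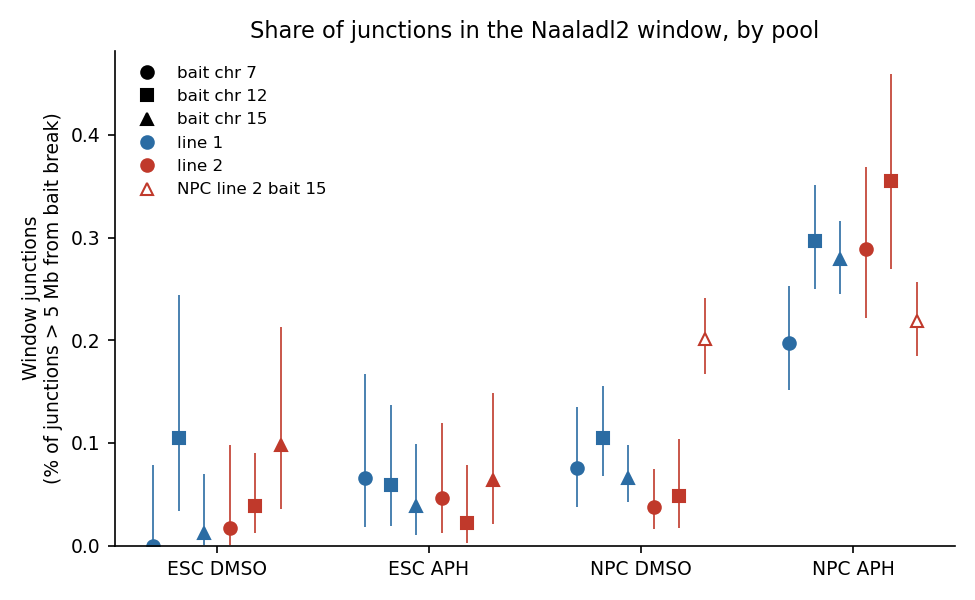
Window junctions as percent of junctions more than 5 Mb from the bait break in each of the 24 pools (y axis), by cell type and treatment (x axis), with 95% exact binomial intervals as bars; markers give the bait and colours the line. The 5 filled NPC APH points sit between 0.198% and 0.355%. The filled NPC DMSO points lie lower, a contrast that chose the window. The open triangles are NPC line 2 bait 15, at 0.201% and 0.218%.

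Junctions gathered in the middle of the window. In the 5 NPC APH pools, the bin from 24 to 24.5 Mb held 318 junctions (0.159% ± 0.0437, SD, n = 5) and the bin from 24.5 to 25 Mb held 164 (0.0827% ± 0.0204). The outer bins held 53 (23.5 to 24 Mb, 0.0247% ± 0.0104) and 33 (25 to 25.5 Mb, 0.0169% ± 0.0093). Just below the window, from 23 to 23.5 Mb, the level was 0.0100% ± 0.0043, and NPC DMSO was at 0.0121% ± 0.0104 there. The inner 1 Mb thus took 84.9% of the 568 NPC APH junctions, against 54.1% of the 74 NPC DMSO junctions. In NPC DMSO the outer bins were at 0.0141% ± 0.0059 and 0.0182% ± 0.0054, the latter no lower than under APH. Among the 187 bins with 200 or more junctions over the 24 pools, the bin from 24 to 24.5 Mb ranked 12 by NPC APH level. The bin from 24.5 to 25 Mb ranked 42, with a median bin at 0.0561%. NPC APH was the deepest condition, with 271389 of the 531098 junctions, so this filter favours bins high in NPC APH. The bin from 24.5 to 25 Mb passed it with 211 junctions in NPC APH, 53 in NPC DMSO, 4 in ESC APH and 3 in ESC DMSO over 6 pools each. The ranks are a description among bins so chosen.

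Within this peak the junctions were dispersed, not piled on one site. The 568 NPC APH junctions occupied 537 distinct positions and strands, and the busiest 1 kb held 5 of them (0.880%). The shortest stretch with 50% of the junctions was 401 kb long, from 24.107 to 24.508 Mb, and the median position was 24.383 Mb. In NPC DMSO the same stretch was 788 kb long. Profiles in 20 bins of 100 kb resembled each other between the 5 APH pools, with Pearson correlations of 0.61 to 0.89 and a median of 0.71 over 10 pairs of pools; the points share the region, and 1 pair of these pools also shares some junctions.

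The 2 strands formed separate, overlapping peaks. For a plus-strand junction the prey runs from the junction toward higher coordinates, and for a minus-strand junction toward lower coordinates. In NPC APH, the minus-strand junctions were most frequent from 24.2 Mb to 24.3 Mb, where the 5 pools had 68 minus and 12 plus. The plus-strand junctions were most frequent in the 100 kb from 24.6 Mb, with 50 plus and 14 minus. Nearly as many, 48 plus and 32 minus, lay in the 100 kb from 24.4 Mb. Over the 6 pools as labelled that bin held the most plus junctions, with 62. Below 24.4 Mb, minus junctions outnumbered plus junctions 218 to 73, and in 9 of 9 bins of 100 kb. From 24.4 to 25.1 Mb, plus outnumbered minus 167 to 84, and in 7 of 7 bins. The split positions were chosen after the profile was seen. They leave out the bins above 25.1 Mb, where each strand had at most 4 junctions per bin and plus did not outnumber minus throughout. In NPC DMSO the corresponding counts were 18 minus to 18 plus and 10 minus to 16 plus, too few for a profile.

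**Figure D3:**
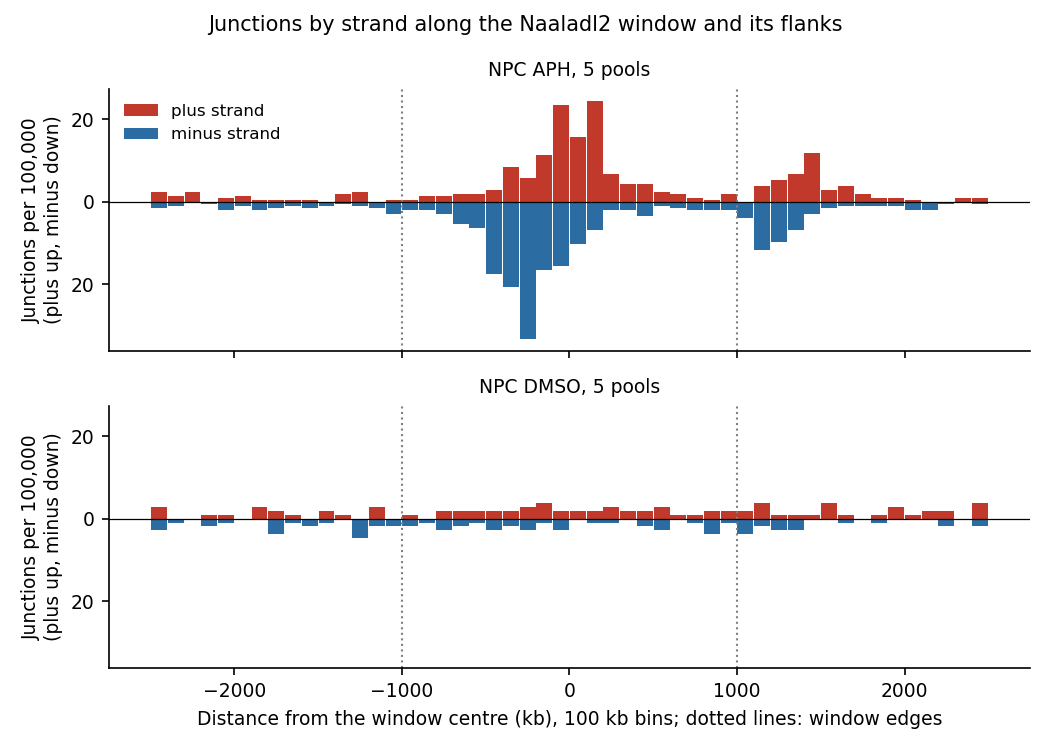
Junctions per 100000 junctions more than 5 Mb from the bait break (y axis, plus strand upward, minus strand downward) in 100 kb bins by distance from the window centre in kb (x axis), summed over the 5 NPC pools without line 2 bait 15, APH above and DMSO below. Minus-strand junctions peak left of the centre (68 in the tallest bin). Plus-strand junctions are tallest right of the centre (50), with 48 in the bin just left of it. A smaller peak lies beyond the right edge.

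The same order held in each NPC APH pool. The minus-strand median lay at 24.242 Mb and the plus-strand median at 24.532 Mb for line 1 bait 7, 290 kb apart. They were 24.233 and 24.504 Mb for line 1 bait 12 (271 kb) and 24.292 and 24.497 Mb for line 1 bait 15 (205 kb). In line 2 they were 24.241 and 24.581 Mb for bait 7 (340 kb) and 24.298 and 24.606 Mb for bait 12 (308 kb). All 5 differences of minus median less plus median were negative, with a mean of -283 kb ± 50.5 (SD, n = 5). Line 2 bait 15 as labelled gave -262 kb.

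The strand offset was the first of 5 measures compared by an exact two-sided sign-flip permutation test over pools, with Benjamini-Hochberg adjustment over the 5. With 6 pools as labelled, the mean was -279 kb ± 46 and the exact permutation p was 0.031, the smallest that 6 pools allow; adjusted it was 0.0781. With the 5 pools, p was 0.0625, the smallest that 5 pools allow (0.156 adjusted by the same permutation test), so this design cannot pass 0.05 once the repeated pool is left out. The offset was -302 kb over the 4 pools with baits 7 and 12. The layout was common in other tiles too. On chromosomes without a bait, 44 tiles of 2 Mb had at least 10 junctions per strand in all 5 pools. Of these, 40.9% (18) had the minus median below the plus median in 5 of 5, and 1 had the opposite in 5 of 5. The Naaladl2 tile is itself counted in the 44 and in the 18. Only tiles dense in NPC APH junctions could pass this filter, so 40.9% is a share of such tiles and not of the genome. By the size of the mean offset the Naaladl2 tile ranked 5 among the 44, whose median was -125 kb.

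**Figure D4:**
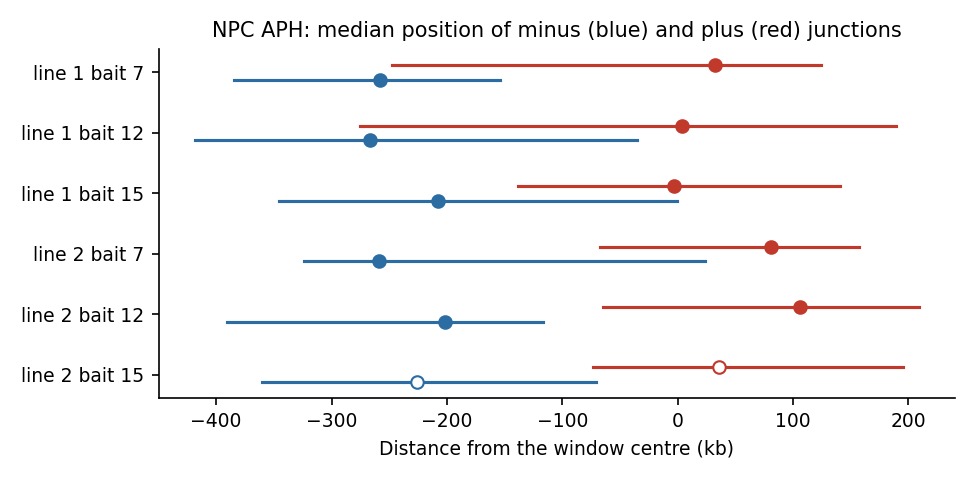
Median position of minus-strand (blue) and plus-strand (red) window junctions in each NPC APH pool, as distance from the window centre in kb (x axis), with lines from the lower to the upper quartile; open points are line 2 bait 15. The minus median is to the left in every pool drawn, by 205 to 340 kb.

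Single experiments were less uniform. Among 7 NPC APH experiments outside line 2 bait 15 with at least 10 junctions per strand, the minus median was lower in 6. The exception was experiment A of line 1 bait 15, at 52.1 kb the other way. Experiment A of line 2 bait 15 DMSO, which shares most of its junctions with it, was also the other way, by 13.5 kb.

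Strand balance is given by bait. The plus strand made up 34.8% (48 of 138) and 32.8% (19 of 58) of NPC APH window junctions with bait 12 in lines 1 and 2. With bait 7 it made up 54.8% (34 of 62) and 50.8% (32 of 63), and with bait 15 in line 1 47.8% (118 of 247). The bait 12 pools were the lowest in both lines, and they share some junctions: 9 of the 138 and 8 of the 58 were also held by another pool. Other junctions on chromosomes without a bait were balanced, at 49.3% ± 0.51 (SD, n = 5). Over the 5 pools the window was -5.11 ± 9.81 percentage points from those others, ranging from -16.6 to 5.69, and the exact permutation p was 0.375 (0.281 over 6 pools as labelled). The order of the baits was noticed in these values and was not tested.

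For joint structure, no difference between the window and the rest passed the test over the 6 pools as labelled. The smallest exact permutation p that 5 pools allow is 0.0625. No difference of any size could therefore pass with the 5 pools, and their p-values decide nothing. Among the 5 pools of NPC APH, 64.3% ± 5.20 of window junctions had 2 or more bases of microhomology, against 64.9% ± 0.71 of other junctions. The difference was -0.58 ± 5.34 percentage points, ran from -6.85 to 6.55 over pools, and had an exact permutation p of 0.938 (0.656 over 6 pools). Counting only 4 or more bases, the window was lower by more: the difference was -2.57 ± 2.10 percentage points over the 5 pools, negative in 4 (exact permutation p = 0.125), and -3.14 ± 2.34 over 6, negative in 5 (exact permutation p = 0.0625). Inserted bases were present at 18.5% ± 5.35 of window junctions and 17.4% ± 0.83 of others, a difference of 1.10 ± 5.09 percentage points, from -5.58 to 6.58, with an exact permutation p of 0.688 (0.62 over 6 pools). The median overlap was 2 bases on both sides of the comparison, and the most frequent overlap was 2 bases, at 22.9% of window junctions and 21.6% of others. Direct joints with 0 bases made up 8.45% and 6.78%. The longest overlap in the window was 16 bases.

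**Figure D5:**
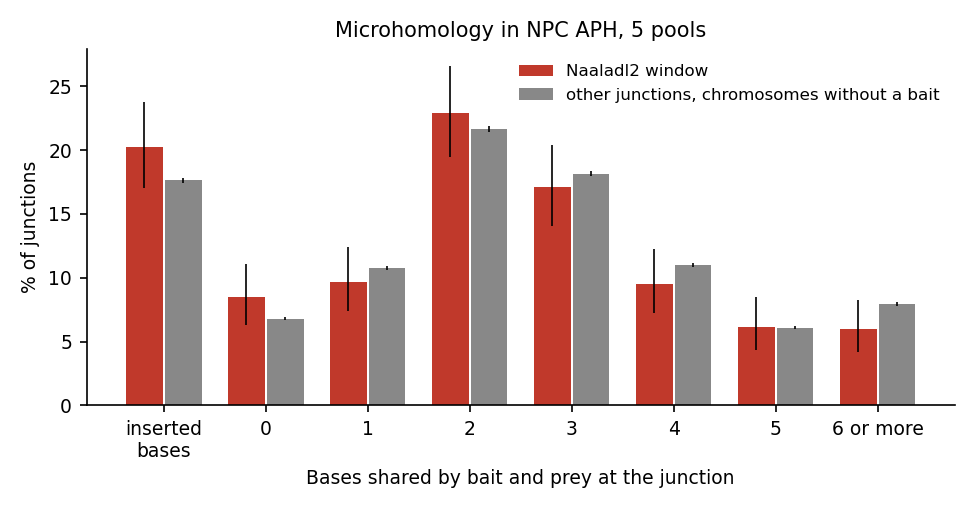
Percent of junctions (y axis) by bases of overlap of the bait and prey alignments, with inserted bases as the first class (x axis). Shown are 568 window junctions and 155507 other junctions in the 5 NPC APH pools. Bars are 95% exact binomial intervals. Both sets peak at 2 bases, 22.9% in the window and 21.6% elsewhere.

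The prey DNA read in the window was richer in A and T in the NPC APH pools. The first 30 prey bases averaged 61.1% A or T ± 1.81 (SD, n = 5) in the window and 54.7% ± 0.71 for other junctions on chromosomes without a bait. The window was higher in each of the 5 pools, by 3.83 to 7.71 percentage points and by 6.44 ± 1.54 on average. The exact permutation p was 0.0625 with 5 pools (0.156 adjusted). With 6 as labelled the exact permutation p was 0.031 (0.0781 adjusted). Both unadjusted values were the smallest the design allows. All pools read the same stretch of DNA, so they are not independent readings of its base composition. How many other bins are higher in every pool was not counted. Against the rest of chromosome 3 the difference was 5.17 percentage points over 6 pools. The base composition of the whole window was not used here, so its part in this difference was not tested.

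A second gathering of junctions began at the window's upper edge. From 25.5 to 26 Mb, outside the window, the 5 NPC APH pools held 129 junctions (0.0660% ± 0.0078, SD, n = 5), above the window's own last bin at 0.0169% ± 0.0093 with no overlap of the pools. NPC DMSO held 21 there (0.0177% ± 0.0121). In the 1 Mb above the window, the minus-strand median was 25.729 Mb and the plus-strand median 25.911 Mb in NPC APH, -182 kb apart over 162 junctions. The 3 of these 5 pools with at least 10 junctions per strand gave -176, -186 and -194 kb. These junctions are not counted in the window, and the 500 kb bin that holds most of them was chosen only as the neighbour.

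Over the 24 pools, 5 bins of 500 kb had levels most like the window's, by Pearson correlation of log2(share + 100), with the share in junctions per 1000000, among 185 bins outside it. They were chromosome 18 from 25 Mb (0.90), chromosome 6 from 77 Mb (0.86), chromosome X from 117.5 Mb (0.85), chromosome 14 from 39.5 Mb (0.84) and chromosome 1 from 68.5 Mb (0.84). The median bin had 0.35, and the bin just above the window had 0.77 and ranked 12. All points share libraries and depth, and the NPC bait 15 pools share junctions; without line 2 bait 15 the 5 values were 0.82 to 0.90 over 22 pools. Mean levels over 6 pools were 0.0642% in NPC APH and 0.0141% in NPC DMSO for the bin on chromosome X, and 0.192% and 0.0455% for the bin on chromosome 14; the bins were chosen for likeness to the window, so these levels are a description.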

How the data were processed

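Junctions were measured in 104 HTGTS-Seq experiments, deposited as 24 tables with 1 junction read per row. Reads were aligned with Bowtie2 to mm9, per the submitters' processing notes; the sources used here give no version and no junction caller. The values used, such as positions, strands and alignment ends, carry no other unit and no normalization, per the file headers of the deposited tables. The 2037405 rows gave 2018794 junctions after repeats of a read name in a table were dropped. Letters matched the labels in 21 tables. In the other 3, NPC line 2 bait 15 APH and ESC bait 7 DMSO of both lines, they did not. Those 3 entered levels and tests as pools. The letters written in their rows served only to describe sharing and spread within a pool. Bait breaks were placed at the most frequent bait start (80451956, 13000729 and 86848129 on chromosomes 7, 12 and 15). Shares, exact 95% intervals, strand medians and microhomology (overlap of the bait and prey alignments) were computed with Python 3.11.15, pandas 2.3.3 and scipy 1.17.1. Tests were exact sign-flip permutations over pools. The strand offset test was tried first on simulated positions in independent pools, and the other measures were not simulated. Named bins were those in and beside the window and the 5 with the most similar levels; printed reads were the most frequent position, the lowest-lying of 7 tied next, and 1 junction per bait. The window, lists and tests were chosen with earlier results of these data known. Experiments that repeated others' junctions were found after the files were read, and the values without them were added then.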

Additional observations from a re-analysis of the deposited data

Results flagged for a closer look

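In NPC line 1 bait 12 DMSO, the window share of experiment B was 0.245% (13 of 5301 junctions), far from the other 3 experiments, the nearest of which was at 0.0876%. Of 19 groups of pools or experiments examined for such a gap, this was the 1 that had one, and chance gives about 1 in 20. Experiment B shared 31.1% of the smaller set with ESC line 1 bait 12 DMSO experiment A. NPC line 1 bait 15 DMSO experiment B also shared junctions with an ESC experiment (18.9%), and its window share was 0.0694%. Whether sharing bears on the level was not tested.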

How the results depend on the processing

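Of the 11 alternatives each, the strand offset and the AT difference kept their direction in 11. They lost the unadjusted threshold in the 7 that left fewer than 6 pools, where an exact permutation p cannot reach it: leaving out 1 pool at a time gave -294 to -267 kb and 6.44 to 7.32 percentage points, and leaving out both bait 15 pools gave -302 kb and 6.12 points. The small differences without support changed sign: microhomology was -2.40 to 0.28 points with 1 pool left out (0.28 without line 1 bait 15) and 0.99 without both bait 15 pools, and insertions were -0.14 to 2.30 (-0.14 without line 2 bait 7) and -0.058. Counting 4 or more bases, microhomology was -3.14 points over 6 pools, and -2.57 without line 2 bait 15 (added after seeing the data). Plus-strand share stayed between -7.23 and -2.77. The mean share moved beyond its spread with another denominator: NPC APH was 0.330% of junctions off the bait chromosome and 0.363% of those on chromosomes without a bait, and ESC APH 0.0666% of the latter. ESC APH was 0.0258% in the inner 1 Mb. With 1 pool left out, the means were 0.256% to 0.288% (NPC APH), 0.0665% to 0.0992% (NPC DMSO), 0.0460% to 0.0547% (ESC APH) and 0.0333% to 0.0542% (ESC DMSO). With every junction held by another pool left out, NPC APH was 0.259%, NPC DMSO 0.0815%, ESC APH 0.0495% and ESC DMSO 0.0304%. Without experiments A and D of line 2 bait 15 NPC DMSO was 0.0653%. Both alternatives, and leaving out both bait 15 pools, were chosen after seeing the data. No paired analysis was possible because the experiment letters give no pairing of samples across pools; the 5 tests are themselves differences within a pool, so no further block by letter applies. ESC pools held at most 6 window junctions, which limits every ESC value.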
